A study of Homo sapiens with 6 samples.

Results

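The autophagy machinery was examined in RNA-seq libraries of A375, an established human melanoma cell line, as a set of 39 genes chosen by name. All 39 were among the 29790 genes of the table, and all 39 were expressed highly enough to be among the 14344 genes tested. The study compared cells exposed to fluvastatin (3 µM for 24 h; 3 libraries, replicates 0, 1 and 2) with untreated cells grown in parallel (3 control libraries, replicates 0, 1 and 2), to find transcripts that differ after the drug. Fluvastatin is a statin, an inhibitor of HMG-CoA reductase and so of the mevalonate pathway. Both groups were the same line in serum-containing medium, and the labels name no engineered allele and no vehicle for the controls. They name triplicates but not separate cultures, and the p-values therefore reflect how far these libraries differed, a spread that can be technical.

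Autophagy encloses cytoplasm in a double membrane, the autophagosome, and delivers it to lysosomes. The ULK1 kinase complex starts the process, a class III phosphatidylinositol 3-kinase marks the growing membrane, ATG2 and ATG9 supply it with lipid, and a ubiquitin-like conjugation system attaches ATG8 proteins (LC3 and GABARAP) to it. Cargo receptors bind ATG8 proteins and link ubiquitinated proteins or organelles to the membrane, and the transcription factors TFEB and TFE3 are known to drive genes of lysosomes and autophagy. The values below are transcript levels only. Neither ATG8 lipidation nor degradation of cargo was analysed here.

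Levels are given as FPKM (fragments scaled to transcript length and library size), which can be compared between genes because they are per length. The libraries differed in depth. Steps between low FPKM values gave relative depths of 1.27, 1.51 and 1.404 in fluvastatin replicates 0, 1 and 2 and of 1, 1.18 and 0.964 in control replicates 0, 1 and 2, so every treated library was deeper than every control, and depth and drug cannot be told apart. The line's lineage marker SOX10 was at 67.1 to 75.4 FPKM in fluvastatin libraries and 20.1 to 26.1 FPKM in control libraries. SOX10 rose 3.09-fold (limma adjusted p = 4.66e-04), and the melanoma marker NGFR rose 1.54-fold (limma adjusted p = 0.0122). AXL was at 304.7 to 324.9 FPKM in fluvastatin libraries and 320.7 to 342.9 FPKM in control libraries. Neither AXL nor MITF passed, and S100B and S100A1 were too low to be tested. The pigment genes PMEL and DCT stayed below 1 FPKM in all 6 libraries, and MLANA and TYR were not analysed here. Of the markers of other cell types, 3 leukocyte genes summed to 2.39 to 2.59 FPKM in fluvastatin libraries and 0.506 to 1.31 FPKM in control libraries, and 5 fibroblast genes to 10.2 to 12.3 FPKM in fluvastatin libraries and 18.0 to 21.6 FPKM in control libraries. COL1A2, DCN and LUM (fibroblasts) and the defining genes ITGAM and CD14 (leukocytes), PECAM1, VWF and CDH5 (endothelium) and EPCAM and CDH1 (epithelium) were below 1 FPKM in every library. The sums of 5 endothelial genes, 32.8 to 37.4 FPKM in fluvastatin libraries and 25.0 to 29.7 FPKM in control libraries, were nearly all TIE1. The 6 epithelial genes summed to 438.9 to 489.5 FPKM in fluvastatin libraries and 481.9 to 548.8 FPKM in control libraries, nearly all KRT18 and KRT8. The tested markers of other cell types moved in both directions: KRT8 (1.45-fold), KRT14 (4.99 FPKM in treated libraries against 0.691 FPKM in controls), the leukocyte gene LYZ and the endothelial gene KDR rose, KRT18 and the fibroblast gene COL1A1 fell, and TIE1 and PDGFRB did not pass. KRT14 and KDR were under 1 FPKM in every control, so both entered the test through their treated libraries. The part of these marker differences in the results below was not tested.

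Transcripts of 10 autophagy genes rose after fluvastatin, 1 fell and 28 did not pass the test. The risen genes were the kinase ULK1, the membrane-binding protein WIPI1, 4 of 5 ATG8 genes (MAP1LC3A, MAP1LC3B, GABARAP, GABARAPL1), the cargo receptors OPTN, BNIP3L and SQSTM1, and the transcription factor TFE3. PIK3R4, a subunit of the lipid kinase, fell. None of the 10 genes of ATG8 conjugation and processing passed, where 27.7% of all genes tested did. Of these 10, ATG4C passed as fallen in 4 of 15 alternative fits. In a bulk culture, more RNA per cell and more cells that carry it cannot be told apart.

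The test was limma on log2(FPKM + 1), two-sided, with Benjamini-Hochberg adjustment over all 14344 genes, and "rose" and "fell" mean an adjusted p below 0.05. Of all genes tested 14.1% rose and 13.6% fell (27.7% together), whereas of the members 25.6% rose and 2.56% fell. In 19 of 39 members (48.7%) all 3 fluvastatin libraries were above all 3 controls, and in 3 (7.69%) all were below, against 21.9% and 22.9% of all genes tested. The median log2 fold change of the members was 0.18 and that of all genes -0.01, on the log2(FPKM + 1) scale, which understates changes of low genes. Summed over the 39 genes, the level was 1785, 1854 and 1740 FPKM in fluvastatin replicates 0, 1 and 2, against 1453, 1411 and 1424 FPKM in the controls.

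These calls depend on how depth is treated. With each library's relative depth as a covariate, a fit in which depth and drug overlap strongly, 70 of the 14344 genes passed and ULK1 alone of the members (adjusted p = 0.0468). The fitted changes of the 10 risen members stayed positive in that fit, with log2 fold changes of 0.37 to 1.80. In the other 14 alternative fits 9 of the 10 risen members kept their call, the exception being SQSTM1. Without fluvastatin replicate 0 or 2 the count over all genes was 2340 and 2641, against 3971 with all 6 libraries.

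**Figure D1:**
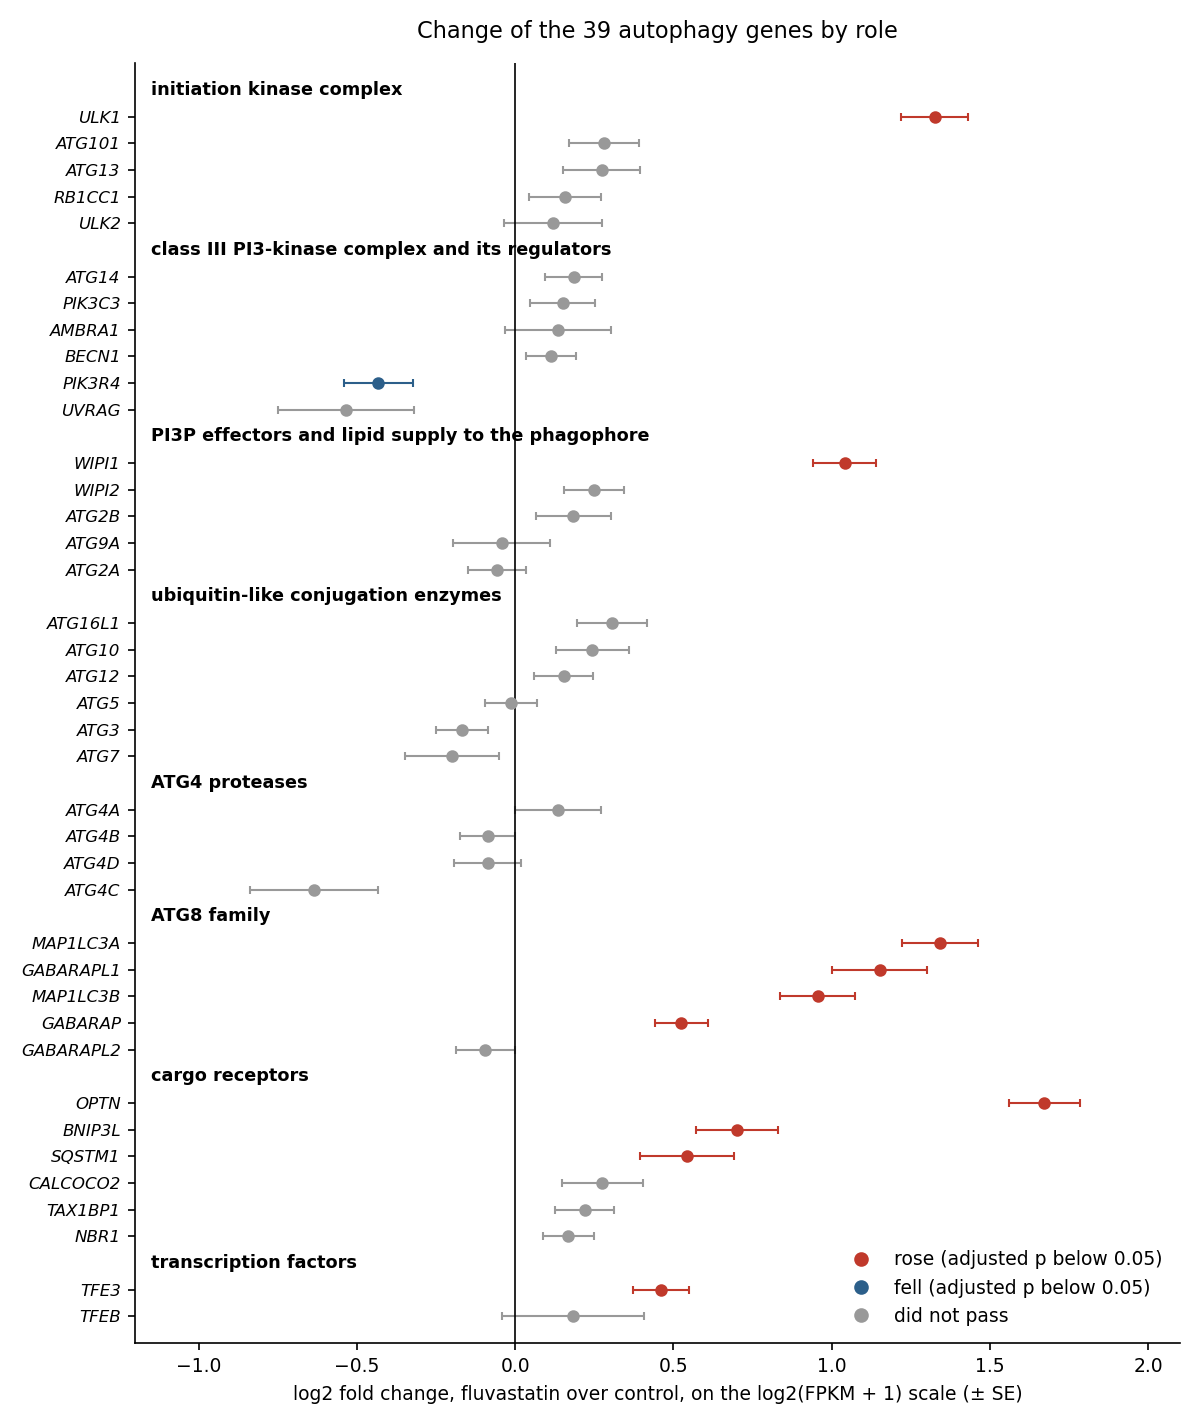
Log2 fold change (x axis, fluvastatin over control on the log2(FPKM + 1) scale, bars ± SE of the limma fit) for the 39 autophagy genes grouped by role. The 10 genes that rose are in red and lie from 0.46 (TFE3) to 1.67 (OPTN), PIK3R4 in blue lies at -0.43, and 28 genes in grey did not pass.

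The sequences in front of the 5 largest rises with an entry among RefSeq promoters are shown because these genes rose together. They are the GRCh38.p14 windows from 250 bases before to 50 bases after a transcription start annotated by RefSeq, read 5′ to 3′ on the gene's strand, and for OPTN the window furthest upstream of 2. These RefSeq starts are not the GENCODE gene starts printed further on, which are the outermost ends of each gene. The RefSeq start lies 8341 bases downstream of the GENCODE start for MAP1LC3B, 633 bases downstream for OPTN, 419 for GABARAPL1 and 17 for WIPI1, and 29 bases upstream for ULK1. Capitals mark matches to 9 motifs searched on both strands. The motifs, chosen with the sequences in view, were the E-box CACGTG, the core of the CLEAR element TCACGTGA, an M-box TCATGTG, the cAMP response element TGACGTCA, a FOXO motif GTAAACA, an AP-1 motif TGANTCA, an antioxidant response element TGACNNNGC, an amino acid response element TGATGNAA and an NF-kB-type motif GGAANTTCC.
OPTN (chr10:13099832-13100131, plus strand): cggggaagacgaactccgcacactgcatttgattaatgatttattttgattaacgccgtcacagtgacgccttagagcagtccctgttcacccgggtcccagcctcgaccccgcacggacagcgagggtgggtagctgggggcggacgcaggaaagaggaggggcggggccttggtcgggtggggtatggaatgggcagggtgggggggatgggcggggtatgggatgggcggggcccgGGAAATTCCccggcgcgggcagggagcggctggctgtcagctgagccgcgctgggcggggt
ULK1 (chr12:131894372-131894671, plus strand): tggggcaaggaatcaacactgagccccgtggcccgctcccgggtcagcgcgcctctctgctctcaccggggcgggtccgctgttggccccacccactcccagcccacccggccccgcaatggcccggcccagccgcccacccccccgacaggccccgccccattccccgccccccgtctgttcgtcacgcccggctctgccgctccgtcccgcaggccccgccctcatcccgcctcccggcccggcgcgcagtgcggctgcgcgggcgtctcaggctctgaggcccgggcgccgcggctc
GABARAPL1 (chr12:10212627-10212926, plus strand): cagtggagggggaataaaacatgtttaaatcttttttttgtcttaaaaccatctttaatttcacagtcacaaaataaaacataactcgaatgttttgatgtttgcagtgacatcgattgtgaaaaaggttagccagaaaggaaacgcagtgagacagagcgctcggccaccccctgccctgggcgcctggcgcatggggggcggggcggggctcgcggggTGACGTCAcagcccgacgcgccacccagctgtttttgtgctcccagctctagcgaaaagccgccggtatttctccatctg
WIPI1 (chr17:68457447-68457746, minus strand): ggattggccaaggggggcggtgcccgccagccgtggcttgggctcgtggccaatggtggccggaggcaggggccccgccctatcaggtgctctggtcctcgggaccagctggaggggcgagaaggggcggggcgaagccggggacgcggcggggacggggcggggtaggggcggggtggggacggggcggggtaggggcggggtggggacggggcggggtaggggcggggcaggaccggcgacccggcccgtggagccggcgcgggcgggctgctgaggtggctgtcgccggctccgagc
MAP1LC3B (chr16:87392086-87392385, plus strand): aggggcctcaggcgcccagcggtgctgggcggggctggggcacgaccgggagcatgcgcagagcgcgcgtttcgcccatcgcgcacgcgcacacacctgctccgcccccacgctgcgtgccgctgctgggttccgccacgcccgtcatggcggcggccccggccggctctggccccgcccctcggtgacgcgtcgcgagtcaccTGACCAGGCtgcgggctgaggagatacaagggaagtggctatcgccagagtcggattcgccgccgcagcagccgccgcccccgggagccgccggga

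In the OPTN window the capitals match the NF-kB-type motif GGAANTTCC and start 11 bases before the RefSeq start. With N as any base, this motif reads the same on both strands. It stood in 0.965% of the 35116 promoter windows of all genes, and among the members also in front of ATG5 and PIK3C3, neither of which was called. GABARAPL1 held the cAMP response element 30 bases before its RefSeq start, a motif of 1.85% of all windows. MAP1LC3B held an antioxidant response element match 46 bases before its RefSeq start, a motif that 13.3% of all windows held somewhere. The ULK1 and WIPI1 windows held none of the 9 motifs. Their GC content was 78.3% and 79.7%, against 75.7% for MAP1LC3B, 66.3% for OPTN, 51.7% for GABARAPL1 and a median of 58.7% over all windows. Of the 39 members 34 had a window, and among them 2 held the E-box (ATG14 and ATG3, neither called), which 7.26% of all windows held. The 34 members had 44 windows, and a member counts if any of its windows matched, whereas the shares over all windows are per window. The CLEAR core, which contains the E-box letters, was in front of ATG3 alone and in 0.980% of all windows. Of the other motifs, the antioxidant response element was also found for ATG101 and CALCOCO2, the M-box (2.92% of all windows) for ATG101 and WIPI2, the FOXO motif (3.42%) for CALCOCO2, the AP-1 motif (7.71%) for TFE3 and the amino acid response element (3.62%) for 0 members. A match here is a run of letters and says nothing of a factor's binding, and a missing match covers only these 300-base windows.

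The initiation complex consists of a kinase, ULK1 or its paralogue ULK2, and the subunits ATG13, ATG101 and RB1CC1 (FIP200). ULK1 (ENSG00000177169.9; GRCh38 chromosome 12, 131894651 to 131923167, plus strand) was at 36.6, 29.6 and 31.7 FPKM in fluvastatin replicates 0, 1 and 2, against 12.6, 11.6 and 12.9 FPKM in control replicates 0, 1 and 2. The lowest treated library was more than 2-fold above the highest control. Its means were 32.7 ± 3.63 FPKM in treated libraries and 12.4 ± 0.654 FPKM in controls (SD, n = 3 each, as for every mean below), a 2.64-fold rise with a log2 fold change of 1.33 ± 0.11 (SE; limma adjusted p = 6.53e-04). ULK2 was scarcely expressed, at 1.38 ± 0.0804 FPKM in fluvastatin libraries and 1.22 ± 0.446 FPKM in control libraries, and the groups overlapped (adjusted p = 0.604). As a ratio within a library, which a single scaling factor per library leaves unchanged, ULK1 exceeded ULK2 26.4-fold, 20.2-fold and 24.4-fold in the treated libraries and 10.03-fold, 15.3-fold and 7.80-fold in the controls. The partners of the kinase did not pass. ATG13, which anchors ULK1 in the complex, was at 93.4, 74.6 and 74.7 FPKM in fluvastatin libraries, against 72.9, 62.6 and 64.1 FPKM in control libraries (adjusted p = 0.148), and the groups did not overlap. ATG101, which stabilises ATG13, was 1.22-fold higher at 37.4 ± 0.687 FPKM in treated libraries against 30.8 ± 3.84 FPKM in controls (adjusted p = 0.107). RB1CC1, the scaffold, was at 27.9 ± 3.33 FPKM in treated libraries and 24.8 ± 1.94 FPKM in controls (adjusted p = 0.355).

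The class III lipid kinase PIK3C3 (VPS34) acts with PIK3R4 (VPS15), BECN1 and either ATG14, for autophagosome formation, or UVRAG, for endosomes and later steps. PIK3R4 (ENSG00000196455.7; chromosome 3, 130678935 to 130746829 on the minus strand), the regulatory subunit that holds PIK3C3, was at 19.2, 19.9 and 20.8 FPKM in fluvastatin libraries and at 31.3, 25.1 and 25.8 FPKM in control libraries. The treated values lay close together and below every control, of which replicate 0 was the highest. PIK3R4 fell 1.37-fold (log2 fold change -0.43 ± 0.11, adjusted p = 0.0286), a call lost without control replicate 0 (0.0619), fluvastatin replicate 0 (0.0915), 1 (0.0762) or 2 (0.0636), and with a replicate block (0.0648), and across the alternatives its adjusted p lay between 0.0153 and 0.480. The catalytic subunit PIK3C3 was at 91.0, 104.1 and 97.1 FPKM in fluvastatin libraries, against 83.2, 83.2 and 97.0 FPKM in control libraries, and did not pass (adjusted p = 0.328). The ratio of PIK3C3 to PIK3R4 within a library was 4.74, 5.22 and 4.66 in treated cells and 2.66, 3.31 and 3.76 in controls. BECN1 (Beclin 1) was at 48.9 ± 1.88 FPKM in treated libraries and 45.1 ± 0.379 FPKM in controls, with all treated libraries above the controls by a small margin (1.08-fold, adjusted p = 0.333). ATG14 was low in both groups, at 4.06 ± 0.337 FPKM in fluvastatin libraries and 3.44 ± 0.179 FPKM in control libraries (adjusted p = 0.176). UVRAG was at 11.9, 9.44 and 15.3 FPKM in fluvastatin libraries and at 17.1, 14.4 and 22.8 FPKM in control libraries, with fluvastatin replicate 2 above control replicate 1 (log2 fold change -0.53 ± 0.21, adjusted p = 0.112). UVRAG passed with a replicate block (0.0231), and its log2 fold change was 0.080 with depth as a covariate (0.929). AMBRA1, a scaffold that regulates BECN1 and ULK1, was at 12.5 ± 2.96 FPKM in treated libraries and 11.1 ± 1.05 FPKM in controls (adjusted p = 0.592).

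WIPI proteins read the lipid made by that kinase, ATG2 proteins transfer lipid to the new membrane, and ATG9A is the membrane-spanning scramblase of its vesicles. WIPI1 (ENSG00000070540.12; chromosome 17, 68420948 to 68457513 on the minus strand) was at 21.0, 18.6 and 19.1 FPKM in fluvastatin libraries, against 9.74, 9.14 and 8.14 FPKM in control libraries. The lowest treated library stood well above the highest control, and the rise was 2.17-fold (log2 fold change 1.04 ± 0.10, adjusted p = 0.00119). Its exons overlap those of ARSG on the other strand over 24.3% of their length, and ARSG was at 1.32 to 1.56 FPKM in treated libraries and 1.41 to 2.03 FPKM in controls. WIPI2, the paralogue known to recruit the ATG16L1 complex, was the more abundant of the pair at 51.3 ± 2.40 FPKM in treated libraries against 43.1 ± 3.55 FPKM in controls, and did not pass (1.19-fold, adjusted p = 0.0993). WIPI1 made up 29.7%, 25.6% and 27.6% of the summed WIPI1 and WIPI2 level in fluvastatin libraries and 17.1%, 18.1% and 16.7% in control libraries. ATG2A was at 9.71 ± 0.840 FPKM in treated libraries and 10.1 ± 0.344 FPKM in controls, ATG2B at 9.28 ± 0.726 FPKM in treated libraries and 8.08 ± 1.08 FPKM in controls, and ATG9A at 27.2 ± 0.718 FPKM in treated libraries and 28.5 ± 5.68 FPKM in controls, with adjusted p from 0.295 to 0.864.

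The conjugation system attaches ATG8 proteins to lipid in a cascade: ATG7 activates, ATG3 transfers, and ATG5 with ATG12 and ATG16L1 forms the final ligase. ATG10 transfers ATG12 to ATG5. None of these 6 genes passed, where 27.7% of all genes tested did, and their adjusted p ranged from 0.0834 to 0.920. ATG12, the most abundant of them, was at 104.5, 100.9 and 94.95 FPKM in fluvastatin libraries, against 84.7, 87.9 and 97.5 FPKM in control libraries, and fluvastatin replicate 2 lay below control replicate 2 (adjusted p = 0.270). ATG16L1 was at 18.3, 14.9 and 17.3 FPKM in treated libraries and 13.0, 12.6 and 14.6 FPKM in controls, 1.26-fold higher on average (adjusted p = 0.0834). ATG5 had nearly the same mean in both groups, 16.7 ± 0.406 FPKM in treated libraries and 16.8 ± 0.789 FPKM in controls, with a log2 fold change of -0.01 ± 0.08 (adjusted p = 0.920). ATG3 was at 43.0 ± 1.35 FPKM in fluvastatin libraries and 48.5 ± 1.91 FPKM in control libraries, every treated value below every control (adjusted p = 0.173). ATG7 was at 34.1, 22.5 and 28.1 FPKM in fluvastatin libraries and 31.8, 32.8 and 31.8 FPKM in control libraries, so the treated libraries spread on both sides of the tight controls (adjusted p = 0.367). ATG10 was at 6.07 ± 0.365 FPKM in treated libraries and 4.99 ± 0.743 FPKM in controls (adjusted p = 0.168), and 6.86% of its exon bases lie opposite those of RPS23, a ribosomal protein gene at 745.5 to 944.1 FPKM in treated libraries and 826.6 to 989.0 FPKM in controls.

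ATG4 proteases cut ATG8 proteins to expose the glycine that is joined to lipid, and later release them from the membrane. None of the 4 passed, where 27.7% of all genes tested did. ATG4B, known as the most active of them, was at 33.4 ± 1.84 FPKM in fluvastatin libraries and 35.5 ± 1.62 FPKM in control libraries (adjusted p = 0.505), and ATG4D at 25.5 ± 2.30 FPKM in treated libraries and 27.1 ± 2.098 FPKM in controls (adjusted p = 0.582). ATG4C was at 6.15, 8.44 and 7.66 FPKM in fluvastatin libraries, against 10.6, 9.88 and 16.3 FPKM in control libraries. The treated values were all below the controls, of which replicate 2 stood high (log2 fold change -0.63 ± 0.20, adjusted p = 0.0592). ATG4C passed in 4 alternatives: after quantile normalization (0.0486), when genes under a mean of 5 FPKM were dropped (0.0440), under limma's trended robust variance model (0.0359) and when protein-coding genes were tested alone (0.0292). Its highest adjusted p among the alternatives was 0.610. ATG4A was low, at 3.90 ± 0.184 FPKM in treated libraries and 3.50 ± 0.760 FPKM in controls (adjusted p = 0.506). Summed, the proteases were at 70.2 ± 1.38 FPKM in treated cells and 78.5 ± 4.29 FPKM in controls.

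The ATG8 family, the proteins that coat the autophagosome and bind the receptors, rose in 4 of 5 genes, against 14.1% of all genes tested. MAP1LC3A (ENSG00000101460.12; chromosome 20, 34546854 to 34560345, plus strand), which encodes LC3A, was at 15.5, 14.9 and 12.7 FPKM in fluvastatin libraries, against 4.97, 4.45 and 5.76 FPKM in control libraries. It rose 2.84-fold, with no overlap between groups (log2 fold change 1.34 ± 0.12, adjusted p = 9.42e-04). MAP1LC3B (ENSG00000140941.12; chromosome 16, 87383995 to 87404779, plus strand), which encodes LC3B, the usual marker of autophagosomes, was at 50.4, 54.5 and 55.3 FPKM in fluvastatin libraries, against 24.7, 25.1 and 31.8 FPKM in control libraries. Control replicate 2 stood above the other controls yet below every treated library (1.96-fold, log2 fold change 0.96 ± 0.12, adjusted p = 0.00272). The near-identical gene MAP1LC3B2 was at 0.410 to 1.22 FPKM in treated libraries and 0.221 to 0.788 FPKM in controls, and reads that fit both genes cannot be assigned with certainty.

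GABARAPL1 (ENSG00000139112.10; chromosome 12, 10212458 to 10223130, plus strand) was at 25.5, 34.3 and 25.9 FPKM in fluvastatin libraries, against 12.02, 13.9 and 10.8 FPKM in control libraries. Replicate 1 was the highest of each group, and the rise was 2.33-fold (log2 fold change 1.15 ± 0.15, adjusted p = 0.00311). The close copy GABARAPL3 was at 0.542 FPKM in fluvastatin replicate 1, at 0.425 FPKM in control replicate 2 and listed at 0 in the other libraries. GABARAP (ENSG00000170296.9; chromosome 17, 7240014 to 7242770 on the minus strand), the most abundant ATG8 transcript, was at 189.1, 206.1 and 208.5 FPKM in fluvastatin libraries and at 140.6, 142.8 and 134.9 FPKM in control libraries. It rose 1.44-fold with no overlap (log2 fold change 0.53 ± 0.08, adjusted p = 0.00652). Exons of CTD-2545G14.7 on the same strand share 30.5% of its exon bases, and that gene did not exceed 0.183 FPKM. GABARAPL2 (GATE-16) was at 64.2, 69.0 and 65.1 FPKM in fluvastatin libraries, against 67.0, 67.8 and 77.4 FPKM in control libraries, and the groups overlapped (log2 fold change -0.09 ± 0.09, adjusted p = 0.503).

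The make-up of the family also differed between the groups, which is described here without a test. The summed ATG8 level was 344.6, 378.8 and 367.5 FPKM in fluvastatin libraries and 249.2, 254.0 and 260.6 FPKM in control libraries. LC3 genes, MAP1LC3A and MAP1LC3B together, supplied 19.1%, 18.3% and 18.5% of that sum in treated cells and 11.9%, 11.6% and 14.4% in controls. GABARAPL2 supplied 18.2% ± 0.454 in fluvastatin libraries and 27.7% ± 1.69 in control libraries (SD, n = 3 each). The share of GABARAP was 55.3% ± 1.23 in treated libraries and 54.8% ± 2.62 in controls. The ratio of GABARAPL1 to GABARAPL2 was 0.398, 0.497 and 0.398 in treated libraries, against 0.180, 0.206 and 0.139 in controls.

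**Figure D2:**
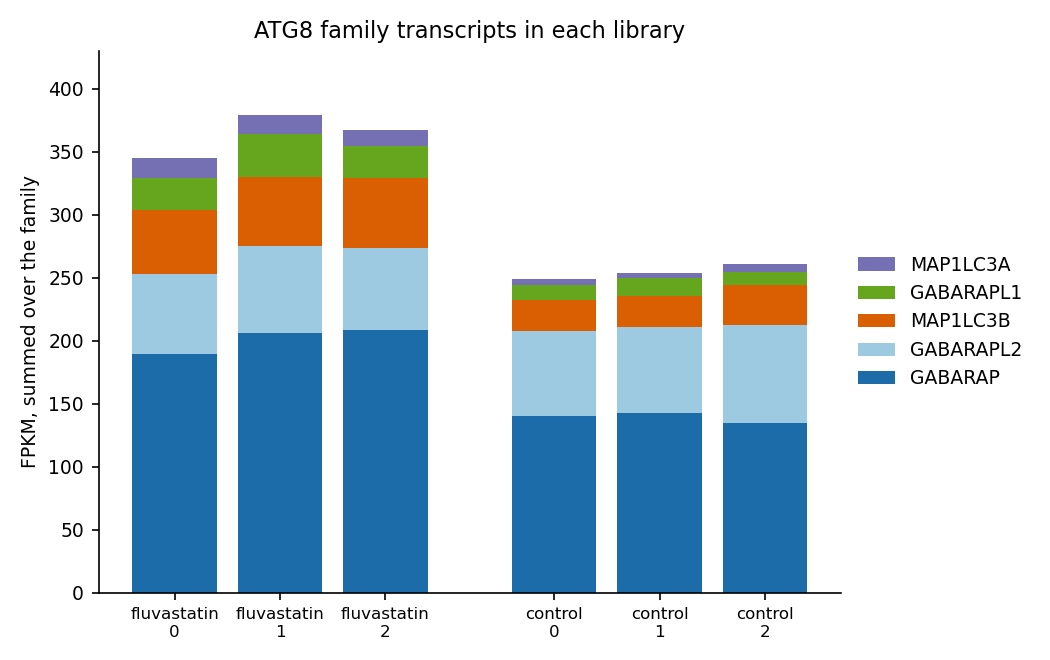
Stacked FPKM (y axis, linear from 0) of the 5 ATG8 genes in each of the 3 fluvastatin libraries (left) and 3 control libraries (right). The treated stacks reach 344.6 to 378.8 FPKM and the control stacks 249.2 to 260.6 FPKM, while the pale GABARAPL2 band stays between 64.2 and 77.4 FPKM.

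Cargo receptors rose in 3 of 6 genes, against 14.1% of all genes tested. The other 3 had higher means without passing, and 7008 of the 14344 genes tested had a positive log2 fold change. OPTN (ENSG00000123240.16; chromosome 10, 13099449 to 13138308, plus strand) encodes optineurin, a receptor for damaged mitochondria, bacteria and aggregates. It was at 35.6, 34.1 and 30.1 FPKM in fluvastatin libraries, against 11.03, 9.15 and 9.11 FPKM in control libraries. The groups lay far apart, and OPTN had the largest log2 fold change of the 39 members, 1.67 ± 0.11 (3.41-fold, adjusted p = 3.74e-04), ranking 93 among the rises of all 14344 genes. Relative to the receptor NBR1 in the same library, OPTN was at 0.697, 0.618 and 0.569 in treated cells and at 0.228, 0.196 and 0.197 in controls.

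BNIP3L (NIX; ENSG00000104765.15), a mitochondrial outer membrane receptor that removes mitochondria, was at 77.4, 105.1 and 84.9 FPKM in fluvastatin libraries, against 57.3, 52.4 and 52.4 FPKM in control libraries. Fluvastatin replicate 1 stood highest, and the treated libraries differed more among themselves than the controls did (1.65-fold, log2 fold change 0.70 ± 0.13, adjusted p = 0.0101). SQSTM1 (p62; ENSG00000161011.19; chromosome 5, 179806398 to 179838078, plus strand), which binds ubiquitinated proteins and is itself degraded by autophagy, was the most abundant of the 39 transcripts. It was at 311.6, 345.8 and 261.8 FPKM in fluvastatin libraries and at 237.7, 213.3 and 179.2 FPKM in control libraries, with fluvastatin replicate 2 not far above control replicate 0. Its 1.46-fold rise (log2 fold change 0.54 ± 0.15, adjusted p = 0.0374) lost its call with a pseudocount of 0.1 (0.0506), with no filter (0.0829), when control replicate 1 (0.0850) or 2 (0.0837) was left out, and when fluvastatin replicate 0 (0.105) or 1 (0.104) was. Across the alternatives its adjusted p lay between 0.0143 and 0.574. Exons of C5orf45 on the other strand overlap 20.7% of the SQSTM1 exons, and that gene was at 7.02 to 8.88 FPKM in treated libraries and 6.78 to 12.2 FPKM in controls. Exons of MGAT4B, also on the other strand, overlap 1.37%. MGAT4B was at 132.2 to 171.5 FPKM in treated libraries and 99.9 to 117.1 FPKM in controls, and its part in the SQSTM1 values was not tested.

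NBR1, a receptor related to SQSTM1, was at 51.0, 55.2 and 52.9 FPKM in fluvastatin libraries, against 48.4, 46.6 and 46.3 FPKM in control libraries (adjusted p = 0.169). TAX1BP1 was at 67.2 ± 5.34 FPKM in treated libraries and 57.5 ± 2.38 FPKM in controls (adjusted p = 0.130). Neither gene passed, and in both every treated library was above every control, as in 21.9% of all genes tested. CALCOCO2 (NDP52), a receptor for bacteria and mitochondria, was at 65.1, 69.6 and 73.4 FPKM in fluvastatin libraries and 50.9, 53.9 and 67.6 FPKM in control libraries (adjusted p = 0.156). Control replicate 2 lay within the treated range, and when it was left out the adjusted p was 0.0403, the lowest among the alternatives (highest 0.514). The 6 receptors summed to 604.1, 674.6 and 576.4 FPKM in treated libraries and 460.3, 433.0 and 414.3 FPKM in controls, of which SQSTM1 took 49.4% ± 3.47 in treated libraries and 48.0% ± 4.31 in controls (SD, n = 3 each). OPTN took 5.39% ± 0.438 of the sum in fluvastatin libraries and 2.24% ± 0.144 in control libraries.

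**Figure D3:**
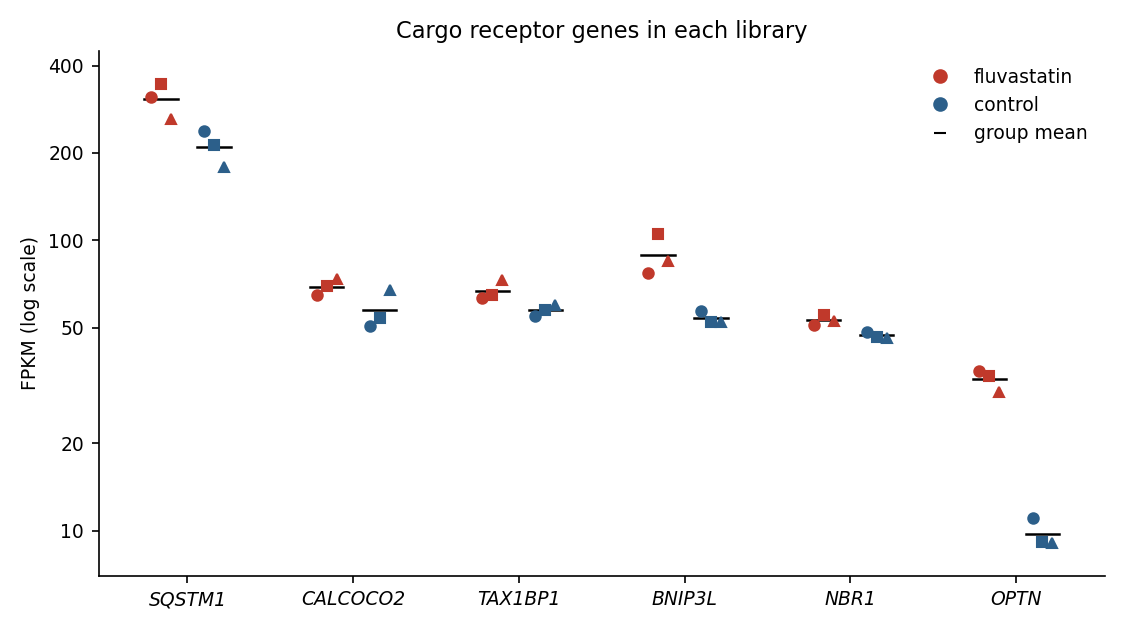
FPKM on a log axis for the 6 cargo receptor genes, with each fluvastatin library in red left of each control library in blue (circle, square and triangle for replicates 0, 1 and 2) and a bar at the group mean. OPTN is the lowest of the 6 and the farthest apart, at 30.1 to 35.6 FPKM in treated cells and 9.11 to 11.03 FPKM in controls.

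Of the transcription factors, TFE3 (ENSG00000068323.16; chromosome X, 49028726 to 49043486 on the minus strand) was at 36.4, 35.8 and 32.0 FPKM in fluvastatin libraries, against 25.3, 25.3 and 24.2 FPKM in control libraries. It rose 1.39-fold with no overlap (log2 fold change 0.46 ± 0.09, adjusted p = 0.0118). TFEB was at 3.11, 3.07 and 1.52 FPKM in fluvastatin libraries and 1.59, 2.05 and 2.65 FPKM in control libraries, and fluvastatin replicate 2 was the lowest of all 6 (adjusted p = 0.589). With the lineage factor MITF, which belongs to the same family, TFE3 supplied 79.1% ± 1.48 of the summed level in treated cells and 72.9% ± 2.61 in controls. MITF itself was at 6.68 ± 0.505 FPKM in treated libraries and 7.18 ± 0.556 FPKM in controls and did not pass (adjusted p = 0.529). The activity of these factors, which is set largely by phosphorylation and entry into the nucleus, was not measured.

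**Figure D4:**
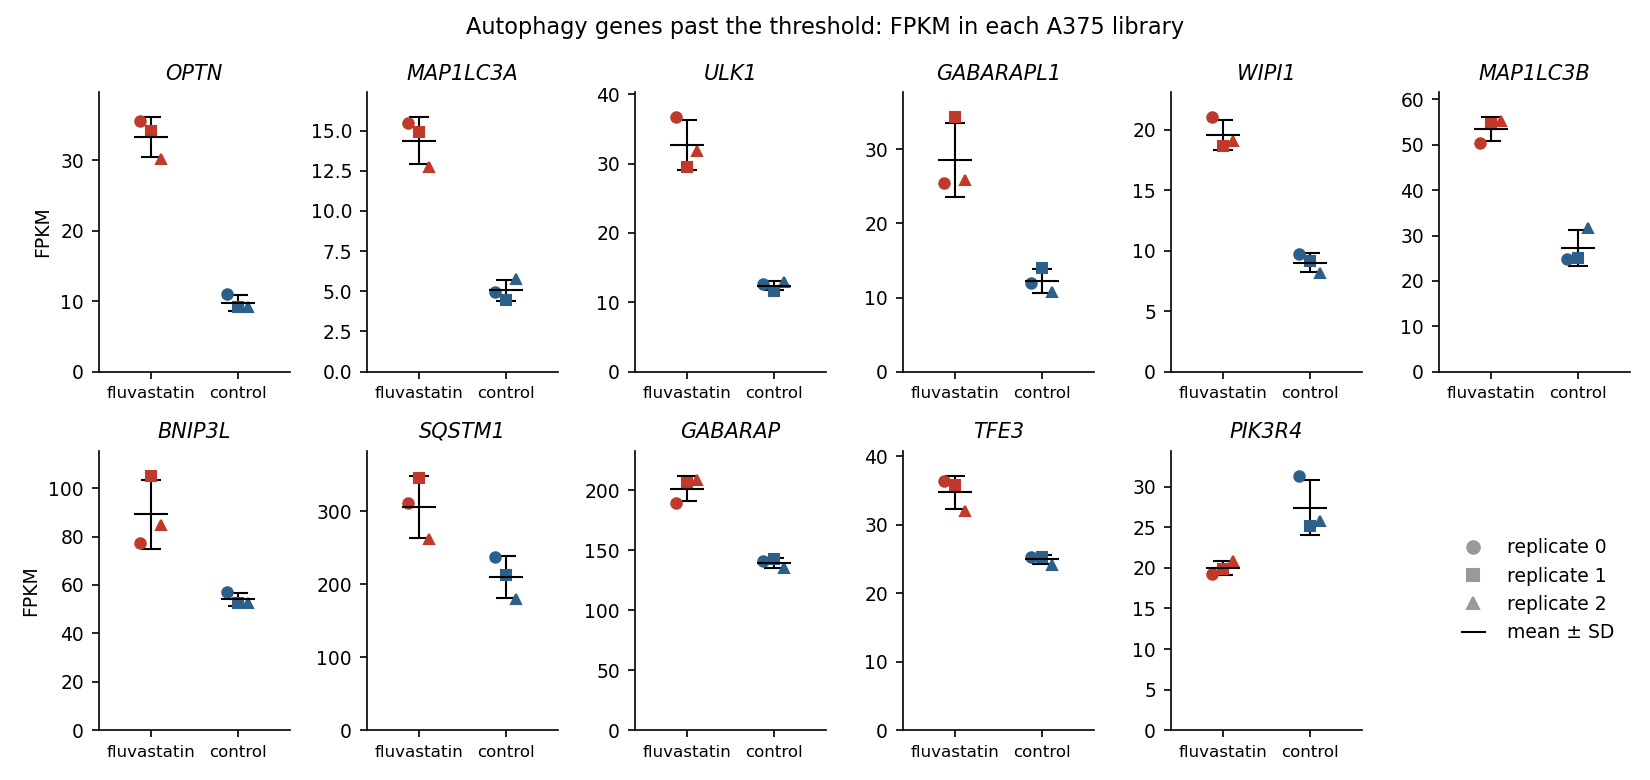
FPKM (y axes, linear from 0) of the 11 autophagy genes past the threshold in each library, fluvastatin left of control, with replicates as circle, square and triangle and black bars for the mean ± SD. In all 11 panels the groups do not overlap, which choosing genes past the threshold on these same values favours. Of all genes tested, 21.9% had all 3 fluvastatin libraries above all 3 controls and 22.9% had all below. OPTN, MAP1LC3A and ULK1 lie farthest apart, SQSTM1 is nearest to overlap at 261.8 FPKM (lowest treated) and 237.7 FPKM (highest control), and PIK3R4 alone is lower in treated cells.

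The order of the 39 genes by level spanned SQSTM1 and GABARAP at the top, ATG12 and PIK3C3 next in both groups, and ULK2 and TFEB at the bottom. The control means ran from 1.22 ± 0.446 FPKM (ULK2) to 210.1 ± 29.4 FPKM (SQSTM1), and ATG12 (90.02 ± 6.62 FPKM) and PIK3C3 (87.8 ± 7.96 FPKM) did not differ beyond their spread. After fluvastatin, ULK1 and OPTN stood at 32.7 ± 3.63 and 33.3 ± 2.80 FPKM, above ATG7 at 28.2 ± 5.77 FPKM. In control libraries ULK1 and OPTN were at 12.4 ± 0.654 and 9.76 ± 1.095 FPKM, below ATG7 at 32.1 ± 0.535 FPKM.

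Around this core, 94 further genes of the pathway were listed in 7 groups, of which 89 could be tested. Among these, 18 rose (20.2%), 3 fell (3.37%) and 68 missed the threshold, and their median log2 fold change was 0.14, against 14.1% risen, 13.6% fallen and a median of -0.01 over all genes tested. Of 10 further core and phagophore genes, 3 rose and 0 fell. They were SH3GLB1, a membrane-bending partner of UVRAG, at 39.6, 38.1 and 42.8 FPKM in treated libraries against 26.7, 25.5 and 26.1 FPKM in controls (adjusted p = 0.00420), NRBF2, a subunit of the lipid kinase complex (1.71-fold, adjusted p = 0.0206), and ZFYVE1, which encodes the omegasome protein DFCP1 (1.88-fold, adjusted p = 0.0284). Of 16 further cargo receptors 6 rose and 2 fell. CALCOCO1, an ER-phagy receptor related to CALCOCO2, was at 26.6, 30.0 and 26.5 FPKM in fluvastatin libraries, against 11.8, 14.8 and 12.8 FPKM in control libraries (2.11-fold, adjusted p = 0.00169). CCPG1, another ER-phagy receptor, rose 1.55-fold (adjusted p = 0.0169), and NUFIP1, a ribosome receptor, fell to 4.19 FPKM in fluvastatin libraries, against 6.68 FPKM in control libraries (adjusted p = 0.0180).

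In the lists of later and upstream steps 12.5% of the genes of transport and fusion, 8.33% of those of mTORC1 and amino acid sensing and 20% of those of AMPK rose, against 14.1% of all genes tested. The share that fell was 0% in each of these lists, against 13.6% of all genes tested. Of 16 genes of autophagosome transport and fusion 2 rose and 0 fell, SNAP29, a fusion SNARE (1.52-fold, adjusted p = 0.0174), and VPS39, a tethering subunit (1.33-fold, adjusted p = 0.0187). Of 24 genes of mTORC1 and amino acid sensing 2 rose and 0 fell, RRAGC, a Rag GTPase of the lysosome surface, at 23.3 FPKM in treated libraries against 15.3 FPKM in controls (adjusted p = 0.00753), and TSC2, an inhibitor of the pathway (1.23-fold, adjusted p = 0.0401). Of 10 genes of AMPK and its upstream kinases 2 rose and 0 fell, CAB39 (1.38-fold, adjusted p = 0.0161) and PRKAB2 (1.39-fold, adjusted p = 0.0201). Of 5 MiT/TFE partners and FOXO factors tested, FOXO3 alone rose (20%) and 0 fell. FOXO3 was at 5.28, 4.71 and 4.39 FPKM in fluvastatin libraries, against 2.59, 2.62 and 2.56 FPKM in control libraries (1.85-fold, adjusted p = 0.00315). Among 8 other regulators 2 rose (25%) and 1 fell (12.5%). TP53INP1 and TP53INP2, which bind ATG8 proteins, rose 2.49-fold and 1.53-fold (adjusted p = 0.00259 and 0.00682), and HMGB1, a chromatin protein, fell to 84.7 FPKM in treated libraries, against 112.6 FPKM in controls (adjusted p = 0.0317). Of TP53INP1 the controls were at 0.702 to 0.981 FPKM, under the 1 FPKM of the filter, so it entered the test through its treated libraries.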

How the data were processed

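Each library has 1 value per gene in the authors' deposited table. Per the submitters' processing notes, STAR, Cufflinks, Cuffdiff and the hg38 genome were used. The header names no unit, and the deposited values were taken as FPKM, as Cufflinks gives. Versions, annotation release, strand setting and any rescaling between libraries are not given in the sources used here. Whether reads of genes that overlap on opposite strands were told apart is therefore unknown. The test covered genes that reached 1 FPKM in 3 or more of the 6 libraries. Linear models were fitted to log2(FPKM + 1) in limma 3.58.1 under R 4.3.3 with moderated variances (neither trended nor robust) and no block, and p-values were adjusted by Benjamini-Hochberg. The fit was tested on simulated data. FPKM carry no counts, so no counting interval is given. Relative depth is the mode of the FPKM ratio between libraries over genes at 0 in at least 1 library. A deeper library has the smaller counting error, which here means the treated cells. Of 29790 identifiers, 29542 matched GENCODE release 29 (GRCh38), the source of gene coordinates. Promoters came from RefSeq (GRCh38.p14), which gave windows for 34 members.

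The 39 members, the lists and the motifs were chosen with earlier results of these data known, so no set test was run. All members are named. Values of every library are given for members past the threshold and, of the others, for the 3 of highest mean (ATG12, PIK3C3, ATG13) and where a group turns on them. From each related list up to 3 called genes with the smallest adjusted p are named. RETREG1 and CASTOR1 were matched by identifier. No pair of libraries shared more than 2 identical values above 0. The 15 alternatives were another scaling (2), pseudocount, filter (2), variance model, gene set, a replicate block, depth as a covariate and leaving out each of 6 libraries.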

Additional observations from a re-analysis of the deposited data

How the results depend on the processing

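Of the 11 called members, 9 kept their call in each of the 14 alternatives other than the depth covariate, and the exceptions, SQSTM1 and PIK3R4, are given above with their values. With the depth covariate 70 genes and 1 member passed, against 3971 and 11, and the cause was not tested. Leaving out a library gave 2340 (without fluvastatin replicate 0) to 3416 genes and 9 to 11 members. The members' median log2 fold change, 0.18, was 0.22 with a pseudocount of 0.1, 0.22 with the depth covariate and 0.17 to 0.21 with a library left out. The sign turned in at least 1 alternative for 8 members, none of them called. With the depth covariate UVRAG was at 0.080, ATG2A at 0.045, ATG5 at 0.060, ATG7 at 0.13 and ATG4A at -0.20. With a library left out, the log2 fold change ran from -0.037 to 0.26 for ULK2, from -0.031 to 0.28 for AMBRA1, from -0.21 to 0.044 for ATG9A and from -0.051 to 0.0068 for ATG5. The correlations do not settle whether replicate numbers pair the libraries. Deviations of same-numbered libraries correlated across genes at -0.0015, 0.085 and 0.084 for replicates 0, 1 and 2. Those of differently numbered libraries correlated at -0.14 to 0.058. Both libraries of replicates 1 and 2 correlated best with their own number, and those of replicate 0 did not. The replicate block gave 3154 genes and 11 members, 10 of them called without it, as PIK3R4 was lost and UVRAG passed (adjusted p = 0.0231).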
